A study of Mus musculus with 12 samples.

Results

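The genes described are 10 of the 32544 gene symbols measured, namely 7 ligands (Fgf1, Fgf2, Fgf7, Fgf10, Fgf18, Fgf21 and Fgf23) and 3 receptors (Fgfr1, Fgfr2 and Fgfr3) of the fibroblast growth factor (FGF) family. They were chosen by gene symbol, because Fgf23 was already known to have one of the largest falls after vesicle treatment in these libraries. The recipient cells were 3T3, an established mouse fibroblast line, and RNA was sequenced in bulk from 4 groups of 3 libraries. Untreated cells formed the reference. The other groups were given extracellular vesicles (EVs, membrane-bound particles shed by cells) for 24 h. Donor cells of these EVs were MDA-MB-468, an established line of human breast cancer, either as its control version (shCon), with CRIPTO knocked down (shCr), or made to overexpress CRIPTO (CrOE). CRIPTO is a cell-surface co-receptor of the TGF-beta family. The 3 CrOE columns were headed with the protein's name alone and were assigned by elimination, so the group name of those libraries rests on that step. No label gives the EV dose, the number of donor clones or whether replicates were separate cultures, so p-values measure only the spread between these libraries.

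FGF ligands bind receptor tyrosine kinases, with heparan sulfate as a cofactor, and the receptors signal mainly through the adaptor FRS2 to RAS and ERK. Fibroblasts are a classic source of the paracrine ligands FGF7 and FGF10, which act on the epithelial splice form of FGFR2. FGF21 and FGF23 are endocrine ligands that need a Klotho protein as a co-receptor. FGF21 is a hormone of the fasted and stressed liver, and FGF23 is made by bone cells and lowers phosphate and active vitamin D through the kidney.

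Library totals were 25960054 to 37774020 estimated counts, so 1 count equalled 0.0265 to 0.0381 CPM (counts scaled to a common library size, with TMM). The CrOE libraries stood apart: they correlated at 0.900 to 0.921 with libraries of other groups, against 0.974 to 0.991 between the other groups (Pearson's r across genes, which are not independent replicates). All 8 fibroblast markers were present in every group. Their summed level was 15220 to 16210 CPM in untreated cells, 17310 to 17480 with shCon EVs, 11850 to 13530 with shCr EVs and 4763 to 4951 with CrOE EVs. That level was mostly Col1a1, Col1a2 and Vim, and single markers differed in direction. With shCon EVs, means of Col1a1, Col1a2, Col3a1 and Pdgfrb were above untreated cells, and those of Vim, Pdgfra, Thy1 and Dcn below. With shCr EVs, Vim and Pdgfrb were above and the others below. With CrOE EVs all 8 were below. The 10 epithelial markers summed to 1.21 to 1.95 CPM in untreated cells, 1.04 to 1.37 with shCon EVs, 1.06 to 1.60 with shCr EVs and 2.53 to 3.62 with CrOE EVs, highest in the CrOE libraries. Epcam had no count in any library, while Cldn4 had 36 to 40 counts in each CrOE library and 0 to 2 in every other. The 6 endothelial and blood markers summed to 4.04 to 4.80 CPM with CrOE EVs and 5.16 to 8.31 in the other groups. That sum was mostly Cd68, at 5.64 CPM in untreated cells and 3.05 with CrOE EVs. Means of Pecam1, Cdh5 and Kdr were higher with CrOE EVs (0.648, 0.187 and 0.403 CPM) than in untreated cells (0.286, 0.0616 and 0.136). Of these, Kdr was higher still with shCon and shCr EVs (0.559 and 0.764 CPM). Cdh5 was at 0.189 and 0.0968 CPM there, and Pecam1 at 0.289 and 0.242. The part of these marker differences in the results on CrOE EVs was not tested, and in bulk RNA fewer cells of a type and less RNA per cell cannot be told apart. Unless stated otherwise, levels are mean CPM ± SD over n = 3 libraries, and log2 fold changes are edgeR estimates with their standard error (SE).

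In untreated cells the members spanned a wide range of levels per kilobase of exon. Fgf7 was highest at 115 ± 7.61 CPM per kb, followed by Fgfr1 at 70.6 ± 1.98, Fgf10 at 29.6 ± 3.01 and Fgf23 at 9.91 ± 2.13. Fgfr2 came next at 5.05 ± 0.369 CPM per kb, above Fgf2 at 1.20 ± 0.214. Fgf18 (0.303 ± 0.0535), Fgf21 (0.0782 ± 0.0388), Fgfr3 (0.0658 ± 0.00402) and Fgf1 (0.0203 ± 0.00649) were near the detection limit. Neighbours in this order were separated by more than their spread, except Fgf21 and Fgfr3. With CrOE EVs the order differed: Fgfr1 led at 73.7 ± 2.00 CPM per kb, Fgf7 followed at 28.1 ± 1.72, and Fgf21 (2.29 ± 0.165) lay above Fgfr2 (0.804 ± 0.0237), while Fgf23 was at 0.0435 ± 0.0242.

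Fgf23, the phosphate-regulating hormone, was lower in every EV-treated library than in every untreated library. Its level was 17.4, 22.1 and 14.5 CPM in the untreated libraries, 1.32, 1.66 and 1.37 with shCon EVs, 2.12, 1.57 and 1.67 with shCr EVs, and 0.0951, 0.0291 and 0.112 with CrOE EVs. The untreated and CrOE groups overlapped with no other group, whereas the shCon and shCr groups overlapped. In counts, the untreated libraries held 474, 580 and 393, and the CrOE libraries 3, 1 and 4. This difference was the basis on which the members were selected, so it is described with no test. The log2 fold change against untreated cells was -3.62 (SE 0.190) with shCon EVs, -3.34 (SE 0.182) with shCr EVs and -7.76 (SE 0.286) with CrOE EVs. These comparisons share the untreated libraries. From summed counts, untreated cells had 12.3 times the Fgf23 of shCon EV cells (95% exact interval 10.2 to 14.9), 10.1 times that of shCr EV cells (8.65 to 11.9) and 227 times that of CrOE EV cells (115 to 528). Cells with shCon EVs had 18.5 times the Fgf23 of CrOE EV cells (9.10 to 43.8), and cells with shCr EVs 22.4 times (11.1 to 52.8). These intervals cover counting error only.

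**Figure D1:**
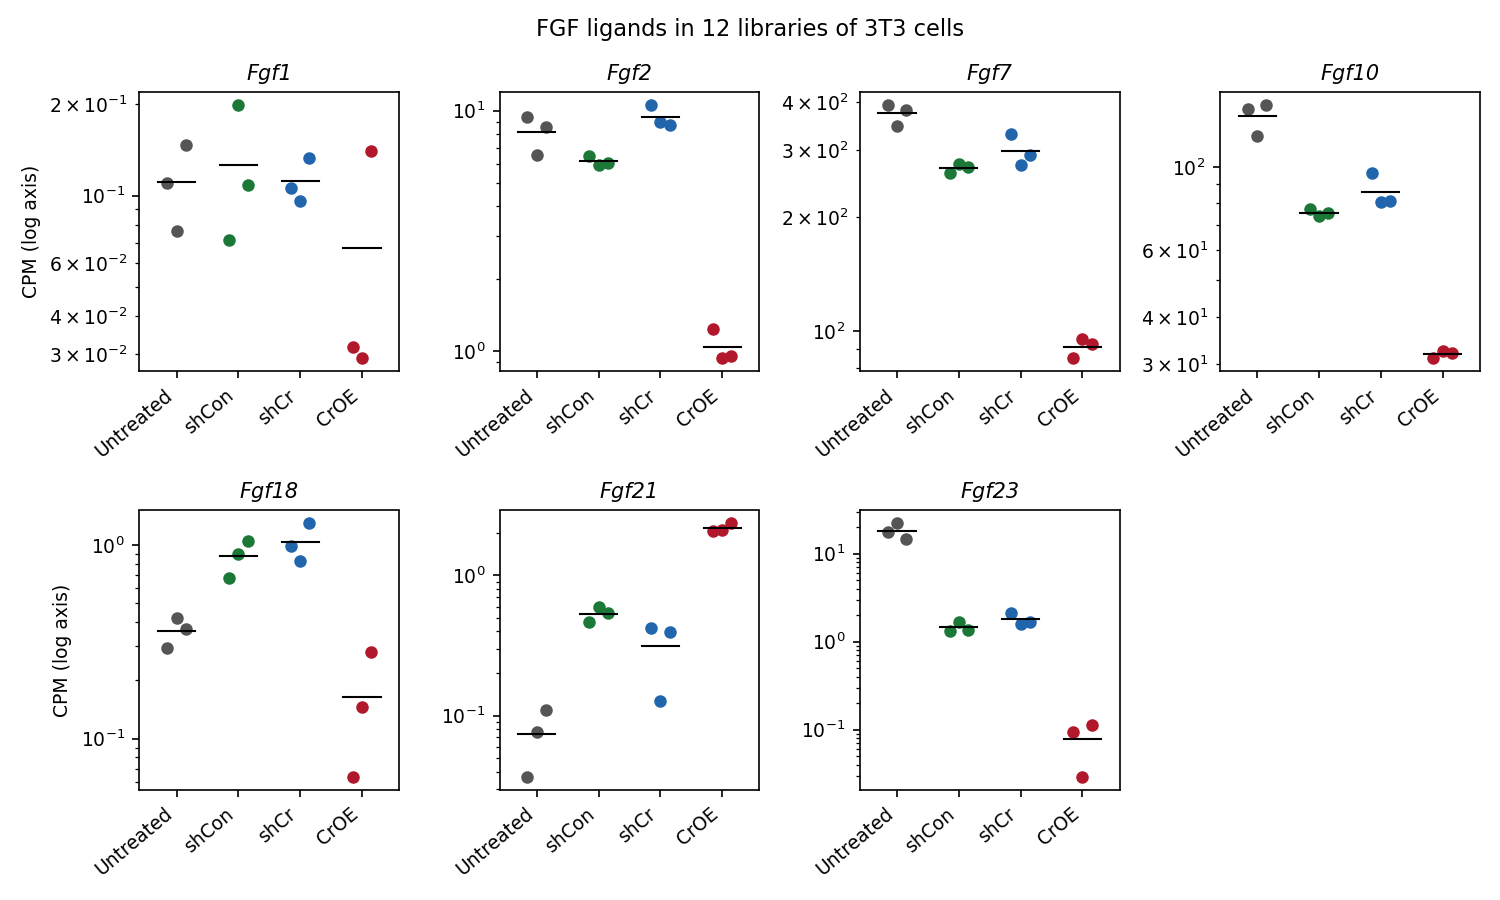
FGF ligands in 12 libraries: each point is 1 library's level in CPM on a log axis, the bar is the group mean, and the panels have separate scales. Fgf23 lay at 14.5 to 22.1 CPM in untreated cells and at most 0.112 with CrOE EVs, and Fgf21 at most 0.110 in untreated cells and 2.06 to 2.36 with CrOE EVs.

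Fgf21, the stress-induced endocrine ligand, showed the reverse pattern at a far lower level. The untreated libraries held 1, 2 and 3 counts, the shCon EV libraries 13, 18 and 15, the shCr EV libraries 12, 4 and 15, and the CrOE EV libraries 65, 73 and 84. In CPM these were 0.0366, 0.0762 and 0.110 in untreated cells, 0.465, 0.598 and 0.540 with shCon EVs, 0.423, 0.128 and 0.398 with shCr EVs, and 2.06, 2.12 and 2.36 with CrOE EVs. No groups overlapped, although replicate 2 of the shCr EV libraries lay close to the untreated ones. Ratios of summed counts against untreated cells were 7.21 with shCon EVs (95% exact interval 3.07 to 20.7), 4.29 with shCr EVs (1.76 to 12.6) and 29.4 with CrOE EVs (13.3 to 81.0). Here too the intervals cover counting error only, not the spread between libraries. The fitted log2 fold changes were 2.78 (SE 0.487), 2.04 (SE 0.525) and 4.80 (SE 0.399), and they depend on the few untreated counts. Fgf21 passed the filter on low counts only through the EV groups, since no untreated library reached the required level.

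The promoters of the 2 endocrine ligands are shown because these members had the largest differences from untreated cells, in opposite directions. Each is the 250 bases before the annotated start in RefSeq for build GRCm38.p6, 5′ to 3′ on the strand of the gene. The window of Fgf23 lies at chr6:127072652-127072901 on the plus strand, and that of Fgf21 at chr7:45615491-45615740 on the minus strand. Capitals mark matches to either of the motifs searched.
Fgf23: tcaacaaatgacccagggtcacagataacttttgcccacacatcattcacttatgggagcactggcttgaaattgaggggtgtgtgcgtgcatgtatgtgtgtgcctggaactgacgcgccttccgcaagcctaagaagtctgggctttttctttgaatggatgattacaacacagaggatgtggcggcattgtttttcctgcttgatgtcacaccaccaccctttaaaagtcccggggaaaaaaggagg
Fgf21: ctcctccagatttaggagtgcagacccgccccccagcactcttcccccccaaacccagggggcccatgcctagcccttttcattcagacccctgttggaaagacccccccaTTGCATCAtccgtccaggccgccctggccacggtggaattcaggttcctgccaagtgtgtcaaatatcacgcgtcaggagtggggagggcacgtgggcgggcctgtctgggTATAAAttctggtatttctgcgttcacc
The motifs were TGATGNAA, the core of the composite element bound by ATF4 with C/EBP proteins, and TATAAA, the TATA box, each on both strands. The matches to them do not overlap. The search was chosen after the values of Fgf21 were seen. The Fgf21 window held TTGCATCA, the first motif read on the opposite strand, 139 to 132 bases before the start, and TATAAA 28 to 23 bases before it. Neither was found in the Fgf23 window. Among 9 windows available for 8 members, each motif was found in 1. Over all 32851 RefSeq promoter windows of this length, 3.45% held TGATGNAA and 12.4% held TATAAA. A match is a description of letters, not a measured binding site.

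Fgf21 is a known target of the transcription factor ATF4 in other cells. Of genes listed for the control of Fgf21, mainly those of the ATF4 stress response, most were higher with every kind of EV. Whether ATF4 acts on Fgf21 in these cells was not tested. Of 7 listed genes, edgeR called 6 higher and 0 lower with shCon EVs (adjusted p under 0.05), where 18% of all genes tested were called higher and 20.2% lower. The counts were 6 higher and 0 lower with shCr EVs (18.4% and 18.8% of all genes) and 6 higher and 1 lower with CrOE EVs (36.7% and 37%). The list's median log2 fold changes were 1.20, 1.10 and 1.67, against 0.0069, 0.020 and 0.0078 over all genes. The gene of the list that did not rise was Ppara, a nuclear receptor that drives Fgf21 in the liver, named after its values were seen. Atf4 itself was at 279 ± 22 CPM in untreated cells, 488 ± 14 with shCon EVs, 482 ± 20 with shCr EVs and 791 ± 14 with CrOE EVs. Ddit3, which encodes the stress factor CHOP, rose from 30.7 ± 3.34 CPM to 70.6 ± 3.33, 67.8 ± 5.97 and 356 ± 13.8 in the same order. Trib3, a pseudokinase induced by ATF4, rose from 24.7 ± 6.13 CPM to 90.4 ± 2.28, 55.3 ± 5.05 and 310 ± 9.50. Between shCr and shCon EVs, 0 were higher and 2 lower (5.22% and 3.51% of all genes). With CrOE EVs 5 were higher and 2 lower than with either of the others, where 36.5% and 36.1% of all genes were called against shCon EVs and 36.9% and 37% against shCr EVs. The 2 lower were Ppara and Atf5, also named after its values were seen. Atf5 was at 190 ± 31.4 CPM in untreated cells, 473 ± 22.4 with shCon EVs, 406 ± 42.5 with shCr EVs and 325 ± 12.7 with CrOE EVs. Trib3 was lower with shCr than with shCon EVs (log2 fold change -0.71, SE 0.123, edgeR adjusted p = 0.00337), as was Asns, asparagine synthetase (-0.34, SE 0.0510, edgeR adjusted p = 0.00131). Chac1, a glutathione-degrading enzyme, rose from 24.5 CPM in untreated cells to 63.1 with shCon EVs and 60.6 with shCr EVs.

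Fgf7, the keratinocyte growth factor, was the most abundant ligand per length in every group. It was at 394, 346 and 381 CPM in the untreated libraries, 261, 276 and 271 with shCon EVs, 329, 273 and 290 with shCr EVs, and 84.9, 95.8 and 92.7 with CrOE EVs. Every EV-treated library lay below every untreated one, the shCon and shCr groups overlapped, and the CrOE group lay below all others. The log2 fold change against untreated cells was -0.47 (SE 0.0746) with shCon EVs, -0.33 (SE 0.0745) with shCr EVs and -2.04 (SE 0.0777) with CrOE EVs. Fgf10, its close relative that drives branching of epithelia, was at 142, 121 and 146 CPM in untreated cells, 77.1, 74.3 and 75.4 with shCon EVs, 96.3, 80.8 and 81.0 with shCr EVs, and 31.02, 32.4 and 32.1 with CrOE EVs. No groups of Fgf10 overlapped. Its log2 fold changes against untreated cells were -0.85 (SE 0.0810), -0.67 (SE 0.0805) and -2.10 (SE 0.0845). By group mean, Fgf7 and Fgf10 thus followed the same order from high to low: untreated, shCr, shCon, CrOE.

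Fgf2, basic FGF, a growth factor that acts on fibroblasts themselves, did not follow that order. Its level was 9.37, 6.56 and 8.57 CPM in untreated cells, 6.44, 5.94 and 6.05 with shCon EVs, 10.6, 8.94 and 8.69 with shCr EVs, and 1.24, 0.931 and 0.955 with CrOE EVs. The shCr libraries overlapped with the untreated ones and lay above all shCon libraries, and the CrOE libraries were the lowest. Log2 fold changes against untreated cells were -0.41 (SE 0.136) with shCon EVs, 0.20 (SE 0.132) with shCr EVs and -2.97 (SE 0.166) with CrOE EVs. In the GENCODE M21 annotation, 640 bases of Fgf2 exons overlap Nudt6, a gene on the opposite strand. The libraries were strand-specific, but whether counting used the strand is not stated in the sources used here. Nudt6 itself was at 3.94 ± 0.499 CPM in untreated cells, 3.82 ± 0.567 with shCon EVs, 4.81 ± 0.428 with shCr EVs and 4.84 ± 0.359 with CrOE EVs. The part of the overlap in the values of either gene was not tested. Nudt6 was called in 1 of 6 comparisons, higher with CrOE than with shCon EVs (log2 fold change 0.34, SE 0.134, edgeR adjusted p = 0.0356), and that call was lost without shCon replicate 2 or 3, or without CrOE replicate 1 or 2 (adjusted p 0.0723 to 0.151).

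Fgf18, a ligand best known from bone and cartilage, was rare, with 8, 11 and 10 counts in untreated cells, 19, 27 and 29 with shCon EVs, 28, 26 and 49 with shCr EVs and 2, 5 and 10 with CrOE EVs. In CPM it was 0.293, 0.419 and 0.368 in untreated cells, 0.680, 0.896 and 1.04 with shCon EVs, 0.987, 0.833 and 1.30 with shCr EVs, and 0.0634, 0.145 and 0.281 with CrOE EVs. The shCon and shCr groups overlapped and lay above the untreated group, and the CrOE group lay below it. The log2 fold changes against untreated cells were 1.27 (SE 0.360), 1.53 (SE 0.348) and -1.09 (SE 0.454). With 1 library left out, the last ranged from -1.72, without CrOE replicate 3, to -0.733. Fgf1, acidic FGF, had 1 to 6 counts in every library and did not pass the filter, so no difference in it was detectable at this depth. Of 17 other family members listed, such as Fgf5, Fgf9 and Fgfr4, only Fgfrl1 passed the filter. Fgfr4 had 1 to 3 counts in every library.

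Fgfr1, the main FGF receptor of mesenchymal cells, was by far the highest of the 3 receptors per length. It was at 679, 718 and 694 CPM in untreated cells, 922, 972 and 1013 with shCon EVs, 847, 1042 and 1013 with shCr EVs, and 709, 748 and 726 with CrOE EVs. The shCon and shCr groups overlapped with each other and lay above the untreated and CrOE groups, which also overlapped. Its log2 fold changes against untreated cells were 0.48 (SE 0.0715), 0.47 (SE 0.0715) and 0.062 (SE 0.0714). Fgfr2, whose epithelial splice form is the receptor for FGF7 and FGF10, was at 49.8, 56.5 and 50.0 CPM in untreated cells, 43.8, 44.4 and 46.2 with shCon EVs, 39.7, 45.2 and 42.2 with shCr EVs, and 8.02, 8.41 and 8.48 with CrOE EVs. The CrOE libraries were far below the rest, and the 2 other EV groups overlapped with each other and lay below untreated cells. Its log2 fold changes against untreated cells were -0.22 (SE 0.0651), -0.30 (SE 0.0650) and -2.65 (SE 0.0726). Splice forms were not measured in counts per gene. Fgfr3, known as a brake on cartilage growth, had 10 to 14 counts in the untreated, shCon and shCr libraries and 41, 27 and 22 with CrOE EVs. In CPM the CrOE libraries were at 1.30, 0.785 and 0.618, above all others, which lay between 0.332 and 0.496. Its log2 fold changes against untreated cells were -0.29 (SE 0.346), -0.30 (SE 0.340) and 0.92 (SE 0.302). Fgfrl1, a receptor-like family member without a kinase domain, was at 30.3 ± 0.241 CPM in untreated cells, 24.9 ± 2.19 with shCon EVs, 25.6 ± 0.847 with shCr EVs and 50.1 ± 1.19 with CrOE EVs. It was called against untreated cells in each EV group, lower with shCon and shCr EVs and higher with CrOE EVs (edgeR adjusted p = 0.00425, 0.00945 and 2.64e-07).

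**Figure D2:**
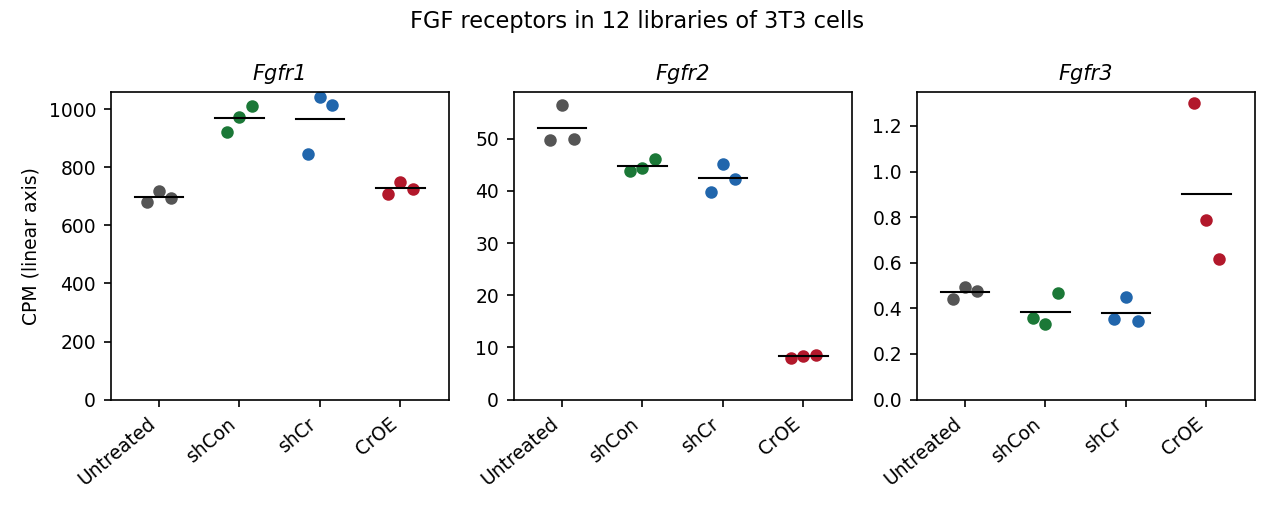
FGF receptors in 12 libraries: each point is 1 library's level in CPM on a linear axis from 0, the bar is the group mean, and the panels have separate scales. Fgfr2 lay at 8.02 to 8.48 CPM with CrOE EVs and at 39.7 or more in every other library, while Fgfr1 with CrOE EVs overlapped with untreated cells.

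Differences between EVs of the donor versions were tested between EV groups, which the choice of members did not use. The level of CRIPTO in the donors was not measured in these libraries. No group is named as a separate control for overexpression. CRIPTO, other differences between donor versions and EV dose thus cannot be told apart. Here 8 members were tested, without Fgf1, which did not pass the filter, and Fgf23. With shCr against shCon EVs, 1 of 8 members was called, where 8.73% of all genes tested were called (5.22% higher and 3.51% lower). That member was Fgf2, higher with shCr EVs by a log2 fold change of 0.61 (SE 0.134, 95% interval 0.32 to 0.90, edgeR adjusted p = 0.0138). It lost its call without shCon replicate 2 or 3 (edgeR adjusted p = 0.0669 and 0.0587) and kept it without the CrOE libraries (0.0239). The remaining members had no call, and their intervals bound the difference. For Fgf7 the log2 fold change was 0.14 (95% interval -0.018 to 0.31, edgeR adjusted p = 0.287). For Fgf10 it was 0.19 (0.0099 to 0.36, edgeR adjusted p = 0.198), with no overlap between the libraries. For Fgfr1 it was -0.0025 (-0.16 to 0.15, edgeR adjusted p = 0.991) and for Fgfr2 -0.079 (-0.22 to 0.063, edgeR adjusted p = 0.541). The rare members had wide intervals: -0.40 to 0.92 for Fgf18, -1.51 to 0.021 for Fgf21 and -0.77 to 0.74 for Fgfr3.

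With CrOE against shCon EVs, 8 of 8 members tested were called, where 72.6% of all genes were called (36.5% higher and 36.1% lower). With CrOE against shCr EVs it was again 8 of 8, with 73.9% of all genes called (36.9% higher and 37% lower). In each of these comparisons 6 members were lower with CrOE EVs, and Fgf21 and Fgfr3 were higher. The count says little about these genes, since most genes were called and Fgf18 and Fgf21 passed the filter without a CrOE or an untreated library, respectively. Against shCon EVs, Fgf2 fell by 2.56 on the log2 scale (SE 0.168, edgeR adjusted p = 1.78e-08). Fgfr2 fell by 2.43 (SE 0.0724, edgeR adjusted p = 1.00e-11). Fgf18 fell by 2.36 (SE 0.392, edgeR adjusted p = 0.000126), but its call says little, since no CrOE library reached the level the filter required. Fgf7 fell by 1.56 (SE 0.0767) and Fgf10 by 1.25 (SE 0.0834). Fgfr1 fell by 0.41 (SE 0.0715, edgeR adjusted p = 0.000178). Fgf21 rose by 2.02 (SE 0.281, edgeR adjusted p = 2.58e-05) and Fgfr3 by 1.21 (SE 0.309, edgeR adjusted p = 0.00339). The ligand pair Fgf7 and Fgf10 and their receptor gene Fgfr2 were thus all lower with CrOE EVs than with either of the other EVs. Against shCr EVs, which share the CrOE libraries with that comparison, the log2 fold changes ran from -3.17 (SE 0.163) for Fgf2 to 2.77 (SE 0.298) for Fgf21. Over all genes the middle 50% of log2 fold changes lay between -0.67 and 0.51 for CrOE against shCon EVs.

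**Figure D3:**
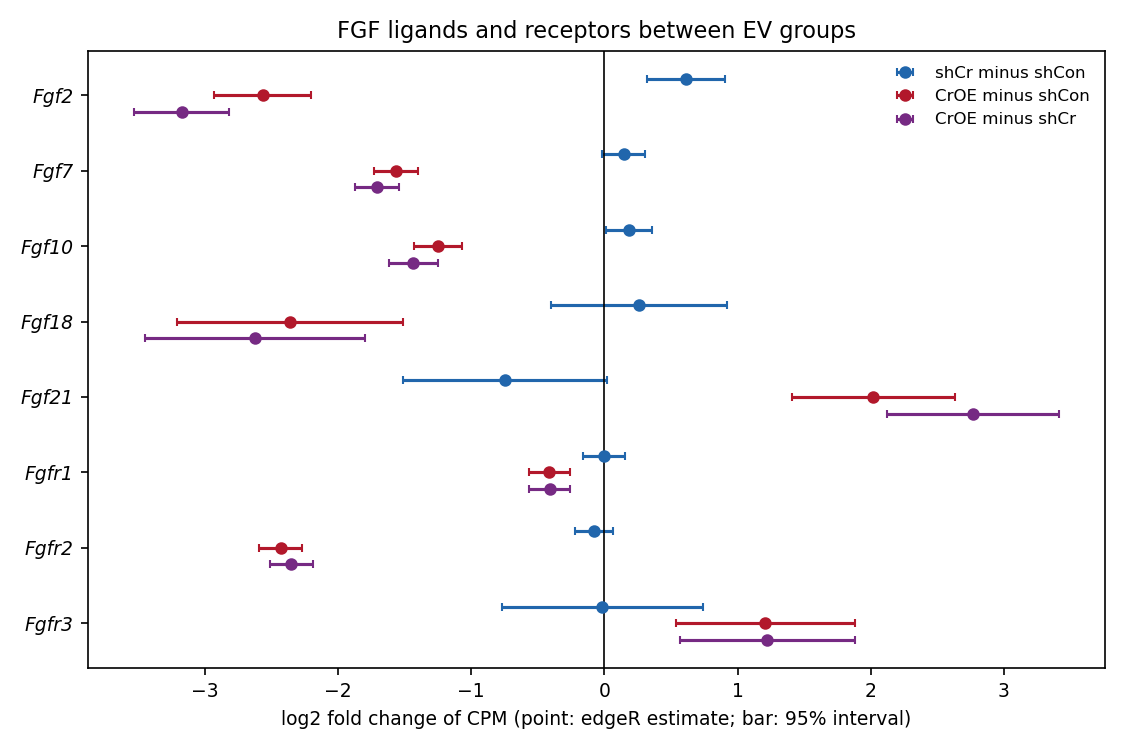
Log2 fold changes of the 8 members tested between EV groups, with 95% intervals from edgeR; the vertical line marks no difference. With shCr against shCon EVs the called gene was Fgf2, at 0.61, and with CrOE EVs Fgf21 and Fgfr3 lay to the right of the line and the other 6 to its left.

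Downstream of ERK, a list of 16 ERK-induced genes and feedback inhibitors was examined. These genes do not tell FGF receptors from other inputs to ERK, and the input behind a difference was not tested. With shCon EVs 10 were called lower and 2 higher, where 38.1% of all genes were called either way, and the list's median log2 fold change was -0.57 (0.0069 over all genes). With shCr EVs 7 were lower and 5 higher (37.3% of all genes, median -0.064), and with CrOE EVs 9 were lower and 4 higher (73.7% of all genes, median -0.29). The shCr counts were 5 lower and 5 higher without untreated replicate 1 or shCr replicate 3, or with only the groups compared. Without untreated replicate 3 they were 5 lower and 4 higher. Dusp6, the ERK phosphatase most often read as an FGF response, was lower than the untreated 24.5 ± 1.14 CPM with every EV, at 9.52 ± 0.297 with shCon, 11.6 ± 0.491 with shCr and 15.2 ± 1.46 with CrOE EVs. Etv4, an ETS factor induced by FGF signals, was at 17.5 ± 1.77 CPM in untreated cells, 5.95 ± 0.198 with shCon, 6.69 ± 1.06 with shCr and 14.3 ± 1.91 with CrOE EVs. Its call with CrOE EVs (edgeR adjusted p = 0.0416) was lost without untreated replicate 2 or 3, or without CrOE replicate 1 or 2 (0.0604 to 0.183). Its relative Etv5 fell with shCon EVs from 21.9 ± 1.25 to 14.7 ± 0.463 CPM and rose with CrOE EVs to 46.8 ± 2.19. With shCr EVs Etv5 was called lower, at 19.1 ± 0.866 CPM. That call was lost without untreated replicate 1 or 3 or shCr replicate 3 (edgeR adjusted p 0.0673 to 0.0962). Etv1, another ETS factor, was lower than untreated cells with shCon and CrOE EVs (log2 fold changes -1.03, SE 0.133, and -0.99, SE 0.132). It was also called lower with shCr EVs, at 19.0 ± 2.48 CPM against 24.8 ± 4.42 in untreated cells. This shCr call was lost without untreated replicate 1 or 3 or shCr replicate 2 or 3 (edgeR adjusted p 0.102 to 0.13). Dusp5, a nuclear ERK phosphatase, fell from 8.91 ± 0.368 CPM to 1.62 ± 0.329 with shCon EVs and 2.13 ± 0.279 with shCr EVs, and was at 7.96 ± 0.424 with CrOE EVs, with no call against untreated cells (edgeR adjusted p = 0.227). Dusp4, another nuclear phosphatase, went the other way, from 13.5 ± 1.19 CPM to 23.2 ± 1.21, 35.0 ± 2.00 and 197 ± 13.3 with shCon, shCr and CrOE EVs.

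Of the Sprouty genes, inhibitors of receptor signalling to ERK, Spry1, Spry2 and Spry4 were higher with shCr than with shCon EVs. Spry2 was at 48.8 ± 1.98 CPM in untreated cells, 32.9 ± 0.701 with shCon EVs, 64.0 ± 3.61 with shCr EVs and 20.5 ± 1.04 with CrOE EVs. Spry1 was at 15.1 ± 1.35, 11.5 ± 0.171, 21.9 ± 1.39 and 4.63 ± 0.662 CPM in the same order. Both were thus below untreated cells with shCon and CrOE EVs and above them with shCr EVs. Spry4 was at 7.03 ± 0.883 CPM in untreated cells, 3.20 ± 0.218 with shCon EVs, 5.26 ± 0.311 with shCr EVs and 5.92 ± 0.349 with CrOE EVs. Spry3 was at 6.89 CPM in untreated cells, 8.85 with shCon EVs, 9.34 with shCr EVs and 1.48 with CrOE EVs. Between shCr and shCon EVs, 10 of the 16 genes were higher and 0 lower, where 5.22% of all genes were called higher and 3.51% lower. The list's median log2 fold change was 0.39, against 0.0043 over all genes. The 10 included Spry2 (0.96, SE 0.0594, edgeR adjusted p = 1.94e-06), Spry1 (0.93, SE 0.0970, edgeR adjusted p = 0.000100) and Spry4 (0.72, SE 0.115, edgeR adjusted p = 0.00191). With any 1 library left out, 8 or 9 genes were called. Dusp6 (0.29, edgeR adjusted p = 0.0491) lost its call without any of the 6 libraries compared (0.0597 to 0.165). Il17rd, the feedback inhibitor Sef (0.37, edgeR adjusted p = 0.0302), lost it without shCon replicate 2 or 3 or shCr replicate 2 (0.0936 to 0.128). Between CrOE and shCon EVs 8 of the 16 were higher and 5 lower (72.6% of all genes called), and between CrOE and shCr EVs 7 were higher and 7 lower (73.9%).

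**Figure D4:**
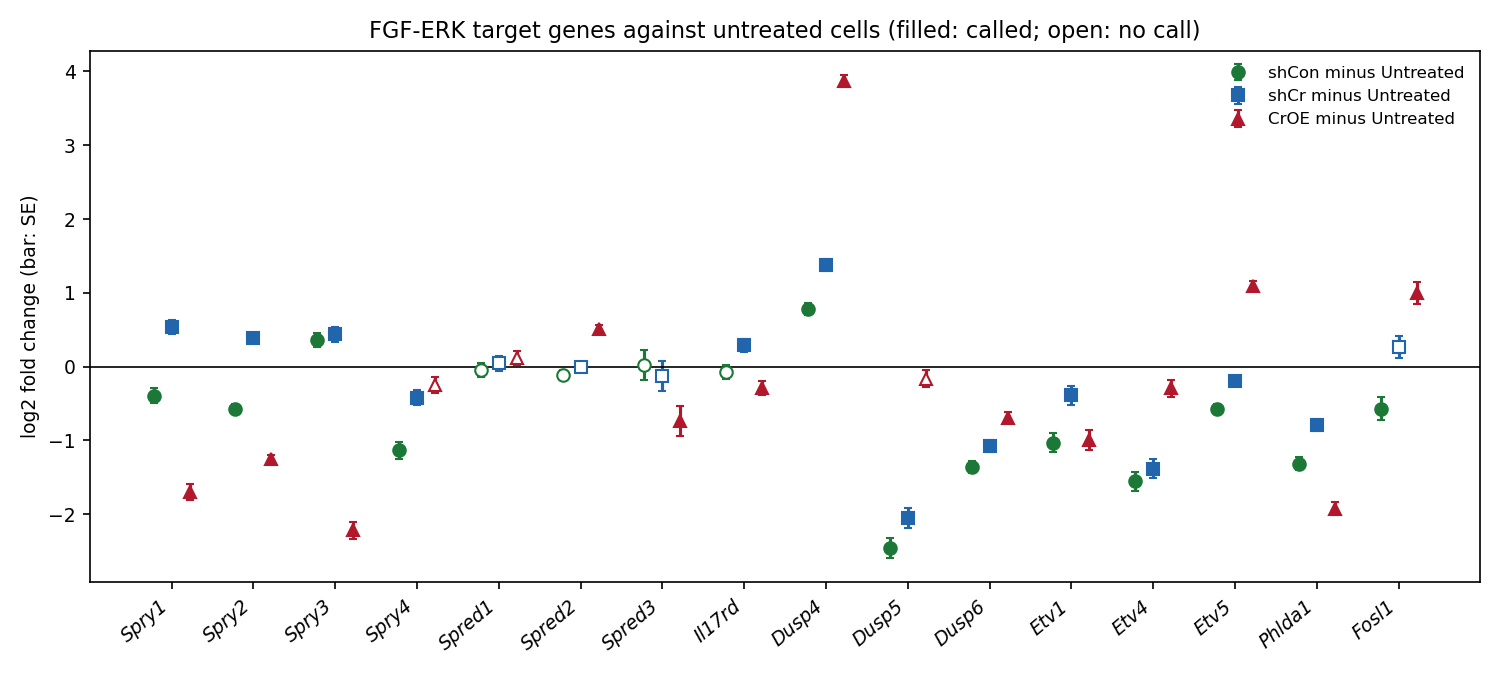
Log2 fold changes of the 16 listed ERK-induced and feedback genes against untreated cells, by EV group, with SE; filled symbols were called by edgeR and open ones were not. Spry1 and Spry2 lay above 0 with shCr EVs alone, and Dusp4 reached 3.87 with CrOE EVs.

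The steps between receptor and ERK had calls in both directions. Of 14 relay genes, from the adaptor Frs2 to the kinase Mapk3, 2 were called higher and 3 lower with shCon EVs against untreated cells (38.1% of all genes called), 1 and 3 with shCr EVs (37.3%), and 4 and 3 with CrOE EVs (73.7%). No share of the list exceeded that of all genes. The shCon count of 5 was 3 without untreated replicate 3. List medians of these log2 fold changes lay between -0.0051 and 0.039. With CrOE EVs against either of the other EVs, 6 were higher and 3 lower (72.6% and 73.9% of all genes called). With shCr against shCon EVs, where 8.73% of all genes were called, 1 was higher (Mapk3) and 1 lower (Frs2). The call of Mapk3 (0.21, edgeR adjusted p = 0.0496) was lost without any shCon library and without shCr replicate 2 or 3 (0.112 to 0.199). Shb, an adaptor, fell from 29.8 CPM in untreated cells to 18.5 with shCon EVs and 18.0 with shCr EVs. Mapk3, which encodes ERK1, fell from 210 to 125 CPM with CrOE EVs, and Sos1, a RAS activator, rose from 71.3 to 117. Frs2 was lower with shCr than with shCon EVs (949 against 1103 CPM, log2 fold change -0.22, SE 0.0462, edgeR adjusted p = 0.0113).

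Of 14 genes that build or trim heparan sulfate, the cofactor of paracrine FGFs, 2 were called higher and 4 lower with shCon EVs, 3 and 6 with shCr EVs, and 3 and 9 with CrOE EVs against untreated cells (medians -0.078, -0.11 and -0.41). Of all genes tested, 38.1%, 37.3% and 73.7% were called in these comparisons. With only the groups compared in the fit, the shCr counts were 2 and 3. Between shCr and shCon EVs (8.73% of all genes) 1 was higher and 0 lower, and the count was 0 without any shCon library or without shCr replicate 2 or 3, and 2 without shCr replicate 1. With CrOE EVs 4 were higher and 7 lower against shCon EVs (72.6% of all genes), and 5 and 7 against shCr EVs (73.9%). The lower genes in each comparison with CrOE EVs include Hs3st1 and Hpse, named after their values were seen, which passed the filter without a CrOE library, so that their calls say little. Sulf2, a sulfatase that removes sulfate groups used by FGFs, was at 235 ± 2.73 CPM in untreated cells, 308 ± 5.58 with shCon EVs, 330 ± 17.7 with shCr EVs and 66.3 ± 6.16 with CrOE EVs. Glce, an epimerase of the chain, rose from 27.5 ± 3.16 CPM to 43.6 ± 0.734 with shCon EVs and 144 ± 8.01 with CrOE EVs. Hs6st2, a sulfotransferase, fell from 113 CPM to 73.0 with shCon EVs and 69.1 with shCr EVs. Among co-receptors and binding partners, 6 of 9 passed the filter, and 2 rose with shCon EVs, 1 rose and 1 fell with shCr EVs, and 2 rose and 3 fell with CrOE EVs (medians 0.43, 0.34 and -0.39), each total within 1 gene of the share of all genes called (38.1%, 37.3% and 73.7%). With CrOE EVs 1 was higher and 4 lower than with shCon EVs, and 1 and 3 than with shCr EVs. These totals too lay within 1 gene of the share of all genes called (72.6% and 73.9%). The gene higher in each comparison with CrOE EVs that passed the filter only through the CrOE libraries was Flrt1, named after its values were seen, at 0.136 CPM in untreated cells, at most 0.288 in any library without CrOE EVs and 2.24 with CrOE EVs. The shCon count fell to 1 without untreated replicate 1 or 3 or shCon replicate 1. Flrt2, a membrane partner of FGF receptors, was at 48.7 CPM in untreated cells, 80.6 with shCon EVs, 80.2 with shCr EVs and 33.8 with CrOE EVs. Flrt3 fell from 13.1 to 5.15 CPM with CrOE EVs. Ncam1, an adhesion molecule that binds FGF receptors, was at 68.1 CPM in untreated cells, 62.5 with shCon EVs, 39.2 with shCr EVs and 28.8 with CrOE EVs, and was the gene of this list called between shCr and shCon EVs, lower with shCr EVs (edgeR adjusted p = 6.19e-05). Without shCr replicate 3 the count there was 2.

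The Klotho co-receptors of the endocrine ligands were scarce. Kl, the co-receptor of FGF23, had 15 to 42 counts per library, with 0.671 ± 0.179 CPM in untreated cells, 1.27 ± 0.201 with shCon EVs, 0.837 ± 0.237 with shCr EVs and 0.562 ± 0.0253 with CrOE EVs. Its rise with shCon EVs (log2 fold change 0.92, SE 0.263, edgeR adjusted p = 0.0148) lost its call without untreated replicate 1 or 3 or shCon replicate 1 (0.0623 to 0.0686). Klb, the co-receptor of FGF21, had 1 to 8 counts in every library and did not pass the filter.

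Genes that process FGF23 or act in phosphate and vitamin D handling moved in both directions. Of 13 listed, 12 were found by symbol and 8 passed the filter. Against untreated cells 3 were higher and 3 lower with shCon EVs, 3 and 2 with shCr EVs, and 4 and 4 with CrOE EVs (medians -0.086, 0.15 and -0.20), where 38.1%, 37.3% and 73.7% of all genes were called. The 3 higher with shCr EVs were 2 with the replicate block, with only the groups compared, without the CrOE group, at 10 counts in every library, and without untreated replicate 1 or 3 or shCr replicate 2 or 3. With shCr against shCon EVs 2 were higher and 0 lower (8.73% of all genes), and with CrOE EVs against either of the other EVs 4 were higher and 4 lower (72.6% and 73.9%). Vdr, the vitamin D receptor, whose ligand raises FGF23 in bone, was at 77.4 ± 2.77 CPM in untreated cells, 19.2 ± 1.73 with shCon EVs, 37.9 ± 3.27 with shCr EVs and 2.41 ± 0.512 with CrOE EVs. It was higher with shCr than with shCon EVs (log2 fold change 0.98, SE 0.103, edgeR adjusted p = 0.000106). Enpp1, which makes pyrophosphate, was the other gene called there and was at 13.5 ± 2.58, 9.36 ± 0.794, 15.4 ± 0.888 and 0.543 ± 0.0925 CPM in the same order of groups. Fam20c, the kinase that marks FGF23 for cleavage, rose from 38.3 ± 4.64 CPM to 65.7 ± 1.55 with shCon EVs and 74.1 ± 4.67 with shCr EVs, and fell to 14.5 ± 1.77 with CrOE EVs. Furin, a protease that cleaves FGF23, fell from 164 to 102 CPM with CrOE EVs. Its call with shCon EVs (log2 fold change -0.19, edgeR adjusted p = 0.0455) was lost when any library but untreated replicate 2 was left out (0.0642 to 0.157). Galnt3, which protects FGF23 from cleavage, had 0 to 5 counts and was not tested. Slc20a1, a phosphate transporter, rose from 129 ± 14.9 CPM to 261 ± 7.84, 248 ± 20.2 and 464 ± 7.06 with shCon, shCr and CrOE EVs. Cyp27b1, the vitamin D activating enzyme that FGF23 represses in the kidney, is named after its values were seen: it was at 0.137 CPM in untreated cells, 0.534 with shCon EVs, 0.365 with shCr EVs and 2.04 with CrOE EVs. It is among the genes counted as higher with each EV, but it passed the filter only through the EV groups, with 1 to 6 counts in the untreated libraries, so that those calls say little.

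Over the 12 libraries, the genes whose log2 CPM was most like that of Fgf23 among 11429 genes searched were Map4k3 (Pearson's r = 0.992), Fam111a (0.991) and Slc9a3r1 (0.990). Map4k3, a kinase of the nutrient-sensing pathway, was at 160 ± 1.58 CPM in untreated cells, 105 ± 0.144 with shCon EVs, 106 ± 0.621 with shCr EVs and 61.7 ± 1.40 with CrOE EVs. Slc9a3r1, a scaffold protein under the cell membrane, was at 68.2 ± 1.71, 34.3 ± 1.82, 36.1 ± 0.180 and 17.4 ± 0.954 CPM in that order, and Fam111a at 47.6 ± 1.45, 26.7 ± 0.344, 28.9 ± 2.02 and 15.6 ± 0.555. For Fgf21 they were Chml (0.975), Acot2 (0.975) and Phgdh (0.974). Acot2, a mitochondrial thioesterase, was at 6.67 ± 0.568 CPM in untreated cells, 22.1 ± 2.08 with shCon EVs, 13.4 ± 1.35 with shCr EVs and 63.1 ± 3.52 with CrOE EVs. Phgdh, which starts serine synthesis, was at 158 ± 13.5, 244 ± 6.21, 215 ± 5.45 and 351 ± 7.28 CPM, and Chml at 7.34 ± 0.364, 13.3 ± 0.235, 11.9 ± 1.08 and 24.2 ± 2.02. These correlations are descriptions over libraries that share 4 group means, and the genes were searched for likeness.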

How the data were processed

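Poly(A)-selected, strand-specific RNA libraries of 3T3 cells were sequenced in 4 groups of 3, per the labels' protocols. The deposited table gives, for each gene symbol, estimated counts in each library. They were read as estimates because 39.8% were not whole numbers, and the authors had not scaled them between libraries. Per the submitters' processing notes, featureCounts and build mm39 were used; the version, aligner, annotation and use of strand are not given in the sources used here. The planned test assumed counts and was kept for estimated counts rounded to whole numbers.

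Genes were kept with filterByExpr over the 4 groups (14279 of 32544 rows, 9 of 10 members) and scaled with TMM. edgeR 4.0.16 in R 4.3.3 (quasi-likelihood F-test, 1 mean per group, all 12 libraries, 8 residual degrees of freedom) compared every pair of groups, with Benjamini-Hochberg adjustment over all genes in a comparison. An adjusted p under 0.05 was a call. The test was tested on simulated data. Replicate libraries differed by more than counting noise, so each was counted as 1 sample. Exon lengths and exon overlaps came from GENCODE M21 (GRCm38), and promoters from RefSeq. No coordinates of that build were joined to the counts. Opposite-strand exons overlap Fgf2, Fgf10, Fgfr1, Fgfr3, Spry1, Dusp5, Spred3, Phlda1, Fosl1, Sulf2, Ncam1, Furin, Slc20a1, Ddit3 and Atf5, whose values are uncertain to that extent. At most 3.29% of a member's 31-base stretches occur in other genes.

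The members and gene lists were chosen with earlier results of these data known. Members were not tested against untreated cells, and Fgf23 was not tested at all. The text names all members, 19 pathway genes fixed by name, up to 2 called genes per list and comparison with the largest fold change (average log2 CPM of at least 1, no overlap between libraries), and the 3 genes most correlated with Fgf23 and with Fgf21 (log2 CPM, prior count 2). Of the genes this rule picks, 1 is counted in its list but not reported here. Alternatives were DESeq2 1.42.0 or its size factors, testing genes unfiltered or with a minimum of 10 counts per library, a replicate block, omission of each library, and a fit restricted to the groups compared. Total-count scaling and leaving out the CrOE libraries were added after seeing the data.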

Additional observations from a re-analysis of the deposited data

How the results depend on the processing

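Of 709 member fold changes recomputed under the alternatives, 695 kept their direction, size and side of the threshold. Reversed log2 fold changes, all without a call, came from leaving out 1 library, over which they ranged for shCr against shCon EVs from -0.0585 to 0.08 for Fgfr1 (0.0265 without shCon replicate 3), -0.143 to 0.139 for Fgfr3 (0.0262 and 0.0616 without shCr replicates 1 and 3), -0.0316 to 0.101 for Fgfrl1 and -0.0549 to 0.00676 for Atf4 (0.00243 without shCon replicate 3). For shCon EVs against untreated cells they ranged from -0.163 to 0.0579 for Nudt6 (0.0487 without shCon replicate 2) and -0.184 to 0.00725 for Il17rd, for CrOE against shCon EVs from -0.0563 to 0.103 for Etv1, and for CrOE against shCr EVs from -0.0495 to 0.0801 for Nudt6 (-0.0369 without CrOE replicate 2). Nudt6 there also reversed at 10 counts in every library (-0.0152) and with only the groups compared (-0.00102). With only the groups compared, shCr against shCon EVs gave 641 calls over all genes (1247 with all groups) and 0 heparan sulfate genes, and shCr EVs against untreated cells gave 5 heparan sulfate genes. At 10 counts in every library, 0 heparan sulfate genes were likewise called between shCr and shCon EVs, against 1 in the test as reported. Relay genes called there numbered 1, not 2, with median-of-ratios or total-count scaling, with no filter, at 10 counts in every library, with only the groups compared and without the CrOE group, as Mapk3 lost its call. With 1 library left out, that comparison gave 632 to 1396 calls over all genes (632, 666 and 688 without shCon replicates 2, 3 and 1), 0 to 1 members, 0 to 2 heparan sulfate genes, 1 to 2 relay genes and 1 to 2 co-receptors, and shCon EVs against untreated cells gave 1 to 3 co-receptors and 3 to 7 relay genes. The cause was not tested. Replicate numbers were not taken to pair the samples: correlations of deviations of same-numbered libraries were -0.2 to 0.32, and no comparison had every one over 0.1. The highest, 0.32 and 0.14 for shCr EVs against untreated cells, were those of replicates 1 and 2. With so few libraries per group this cannot exclude batches shared by same-numbered libraries. With the replicate block, 1281 genes were called between shCr and shCon EVs, Fgf2 among them, and 9 of the 16 ERK-induced and feedback genes. Scaling moved the median of all genes by at most 0.0126. Depth limits Fgf1, Fgf18, Fgf21, Fgfr3 and, with CrOE EVs, Fgf23.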
